A study of Rattus norvegicus with 12 samples.

Results

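Halothane and isoflurane are volatile general anaesthetics, and here both were given at 3 MAC to primary cortical neurons of fetal rats. MAC, the minimum alveolar concentration, expresses the dose of a vapour relative to the dose that stops movement to a painful stimulus. In structure, isoflurane is a halogenated ether, whereas halothane is a halogenated alkane. The comparison uses 6 arrays, chosen by their labels from the 12 of the series: 3 of halothane at 3 MAC and 3 of isoflurane at 3 MAC. The same potency is not the same concentration, which was about 3% for halothane and about 4% for isoflurane. Both groups were cultures at day 16 in vitro, kept in the vapour for 6 h inside a gas-tight chamber and then left to recover for 6 h. The cells came from fetuses of 3 rats at pregnancy day 17, pooled within each rat and plated as 4 dishes per rat. The 3 control plates stood in air, in the same incubator and outside the chamber. They are no part of the test, and their values are given beside it. The other 3 arrays, of halothane at 1 MAC, enter only fits named as such.

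Every array carried a sample in Cy5 and one pool of control RNA in Cy3, so every level below is a log2 ratio to that pool, on which 0 means as in the pool. Differences are halothane minus isoflurane on the log2 scale, and a fold is 2 raised to the size of a difference. The direction (sample over pool) and the log base of the deposited values (10) are likely, and neither is stated. Were the ratio turned round, every higher would become a lower, and a smaller base would shrink every fold. Because each value is a ratio, levels of one gene cannot be set against those of another, and the label of cortical neurons could not be checked by the absolute level of neuronal markers.

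Volatile anaesthetics act on ligand-gated channels, among them GABA-A, glycine, glutamate and nicotinic receptors, and on background potassium channels. They also disturb calcium stores and mitochondrial respiration. Cells under stress answer through a few transcriptional programmes. The unfolded protein response adds chaperones to a loaded endoplasmic reticulum (ER), ATF4 raises amino acid transport and synthesis, and NRF2 raises antioxidant enzymes. SREBP2 drives cholesterol synthesis when sterols in the ER membrane run low. The results follow these programmes, then the receptors and channels, and then the markers of the cell types a cortical culture may hold.

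The arrays of one agent resembled each other far more than those of the other agent. Over the 8933 named genes measured on every array, pairs of halothane arrays had correlations (r) of 0.76 to 0.84, pairs of isoflurane arrays of 0.64 to 0.74, and pairs of unlike agents of 0.05 to 0.21. The controls did not stand apart from both. Control 2 correlated with the halothane arrays at 0.75 to 0.77 and with the isoflurane arrays at −0.08 to 0.04. Control 3 correlated with the halothane arrays at −0.01 to 0.0 and with the isoflurane arrays at 0.47 to 0.63. Control 1 had 0.14 to 0.19 with halothane and 0.39 to 0.41 with isoflurane. Its highest correlations, 0.61 each, were with replicates 2 and 3 of halothane at 1 MAC, and replicate 1 of that group gave 0.18. Each control thus had its highest correlations with arrays of a different treatment, and pairs of controls had −0.05 to 0.42. Genes are not independent replicates, so these values describe the arrays and carry no test. The labels can be read in 2 ways. Each rat may have given 1 dish to every group, or each rat may have given 3 dishes of one treatment and its own control. Under the second reading the difference between the agents and the difference between 2 rats cannot be told apart, and the 3 arrays of a group would be dishes of 1 rat.

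Of 16737 features tested with limma, 2782 (16.6%) differed between halothane and isoflurane at an adjusted p of 0.05, 1198 (7.16%) higher and 1584 (9.46%) lower with halothane. Among the 9283 named genes 1603 (17.3%) passed, 677 (7.29%) higher and 926 (9.98%) lower. The median difference of all named genes was 0.007, and 50.9% lay above 0. The called genes differed by a median of 0.68 in size. More than 2-fold differences were found for 121 genes higher and 285 lower with halothane, and more than 4-fold differences for 14 higher and 54 lower. The 3 halothane values lay wholly on one side of the 3 isoflurane values for 6223 features (37.2%), 3595 of them named genes (38.7%). All 2782 called features were among the 6223. The count of features fell to 1452 without halothane replicate 3 and to 1676 without halothane replicate 1. It was 580 when the spread was taken from all 12 arrays. Without halothane 1 MAC replicate 1, the array of widest spread, that fit gave 2072.

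For most called features the controls were split in the same way as the agents. Of the 2749 called features with values on all 3 controls, control 2 was nearer to the halothane mean for 2592 (94.3%), against 71.3% of all 16098 features with control values. Control 3 was nearer to the isoflurane mean for 2066 (75.2%), against 58.1% of all. Control 2 lay above control 3 for 1115 of 1182 features (94.3%) called higher with halothane and below it for 1484 of 1567 (94.7%) called lower. The difference between the agents was larger than the whole range of the 3 controls for 1471 (53.5%) of the called features, against 25.2% of all. All isoflurane arrays and not all halothane arrays lay outside the control range, on one side, for 1001 (36.4%), the reverse held for 476 (17.3%), and for 1111 (40.4%) neither group did. The part of this split in the results below was not tested.

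**Figure D1:**
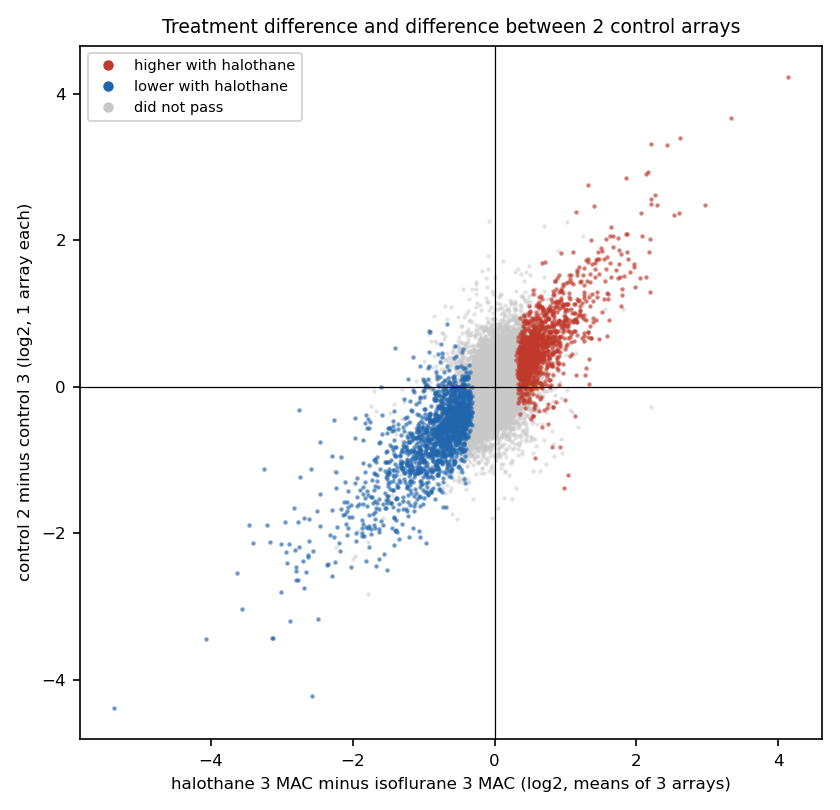
Each point is a feature with values on controls 2 and 3, placed by halothane minus isoflurane (log2, x axis, means of 3 arrays) and control 2 minus control 3 (log2, y axis, 1 array each). Red and blue points passed the test, higher and lower with halothane. Most red points lie above 0 and most blue points below 0 on the y axis. The text gives 94.3% and 94.7% for the called features with values on all 3 controls.

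The largest difference was of a gene lower with halothane. Ifi27l2b, a member of a family of interferon-inducible proteins, read −3.19, −3.22 and −3.31 on the halothane arrays, against 1.76, 2.77 and 1.85 on the isoflurane arrays. It differed by −5.37 ± 0.26 (SE, 3 arrays against 3), or 41.2-fold, with an adjusted p of 0.0001 in limma. Controls 1, 2 and 3 read 0.45, −3.62 and 0.76, so control 2 stood with halothane and the others between the agents. Cd44, the hyaluronan receptor, differed by −3.63 ± 0.38 (12.4-fold), and Lgals3, the secreted lectin galectin-3, by −3.47 ± 0.28 (11.1-fold). The glycoprotein Gpnmb differed by −2.96 ± 0.12 and Stbd1, which binds glycogen, by −2.92 ± 0.24. The adjusted p of these 4 lay between 5.36e-05 and 0.00116. No halothane array overlapped an isoflurane array for any of them, which held for every called feature and was a condition of naming them. In each, control 2 lay nearer to the halothane mean.

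On the higher side Ttr, the thyroxine carrier transthyretin, led. It read 0.75, 1.67 and 1.24 with halothane, −3.39, −2.19 and −3.19 with isoflurane and −1.34, 1.28 and −2.95 on controls 1, 2 and 3. The difference was 4.14 ± 0.35 (17.7-fold, adjusted p = 0.000588). Ttr is a marker of choroid plexus, and of the 10 measured genes on the list of choroid plexus and ependymal markers it alone passed (2 did without halothane replicate 1). Next came the cadherin-related Cdhr1 (3.34 ± 0.17, 10.1-fold), the transcription factor Eomes (2.62 ± 0.27, 6.13-fold), which marks intermediate progenitors of the cortex, and Pmch (2.6 ± 0.2, 6.06-fold), the precursor of melanin-concentrating hormone. The matrix protein Cilp (2.17 ± 0.21) and the homeodomain factor Isl1 (2.05 ± 0.31) were also over 4-fold higher. Each of these genes passed whichever of the 6 arrays was left out. For Cdhr1 and Cilp, however, control 2 lay above control 3 by 3.664 and 2.93, which is more than the agents differed. For Ttr too, control 2 at 1.28 and control 3 at −2.95 lay further apart than the agents did.

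**Figure D2:**
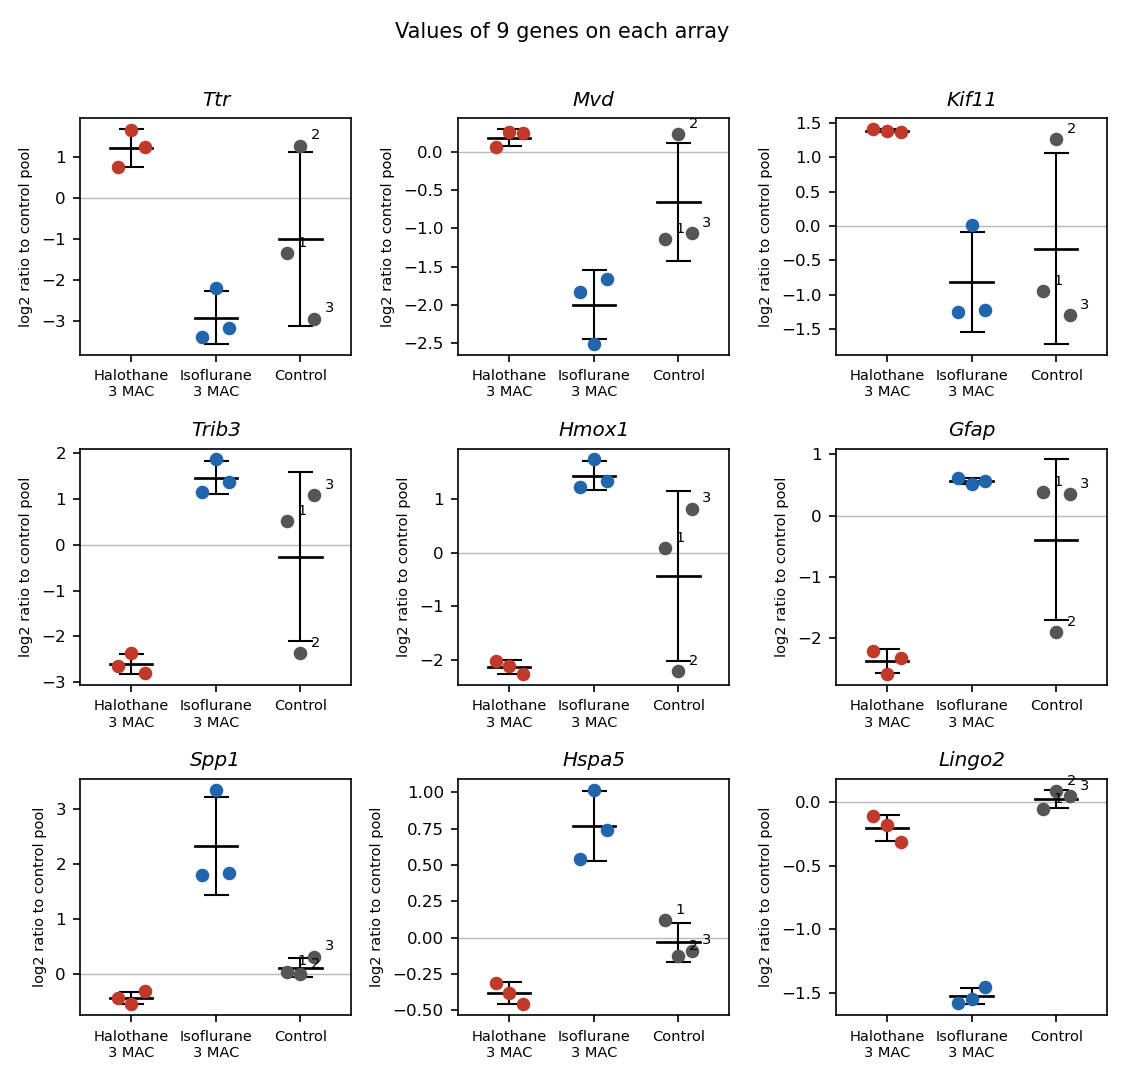
Log2 ratios to the control pool of 9 genes on each halothane 3 MAC (red), isoflurane 3 MAC (blue) and control (grey, numbered) array. Bars are the mean and SD of 3 arrays. The halothane and isoflurane points do not overlap in any panel, as for every called feature. Control 2 lies beside the halothane arrays for Ttr, Mvd, Kif11, Trib3, Hmox1 and Gfap, whereas the 3 controls lie close together for Spp1, Hspa5 and Lingo2.

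Genes of cholesterol synthesis were higher with halothane than with isoflurane. Of 23 measured members, 18 were higher and 0 lower, with a median of 1.10, against 7.29% higher and a median of 0.007 over all named genes. Mvd, which makes isopentenyl diphosphate from mevalonate diphosphate, read 0.06, 0.26 and 0.24 with halothane and −1.83, −2.51 and −1.66 with isoflurane. It was 4.57-fold higher (2.19 ± 0.22, adjusted p = 0.000973). All halothane values were near the pool and all isoflurane values far below it. Acat2, which joins acetyl-CoA units at the start of the pathway, read 0.56, 0.52 and 0.85 against −1.21, −1.64 and −1.62 (2.13 ± 0.15, 4.39-fold). Further along, the kinase Mvk differed by 1.26 ± 0.10, the isomerase Idi1 by 1.61 ± 0.16 and the lanosterol demethylase Cyp51 by 1.54 ± 0.12. Insig1, which holds the sterol sensor in the ER and is itself induced when sterols are low, differed by 1.48 ± 0.15 and was chosen after its values were seen. Adjusted p of these 5 genes lay between 0.000305 and 0.00119.

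The 5 members that did not pass were mostly regulators and transport genes. The lanosterol synthase Lss stood at 0.62 ± 0.22 (adjusted p = 0.105) and the lysosomal exporter Npc1 at −0.22 ± 0.10. Srebf2, the gene of SREBP2 itself, stood at 0.05 (95% interval −0.24 to 0.33), its escort Scap at −0.01 and Insig2 at −0.01 (−0.24 to 0.22). The list median was 0.33 to 0.38 on the halothane arrays and −1.03 to −0.56 on the isoflurane arrays, with −0.44, 0.29 and −0.30 on controls 1, 2 and 3. All isoflurane arrays thus lay below all controls, and all halothane arrays lay above them. Control 2 stood beside the halothane arrays, well above controls 1 and 3. For all 18 called members control 2 lay on the halothane side of control 3. The difference exceeded the range of the controls for 16 of the 18 called members, and 15 to 18 members were higher with any 1 array left out. With all 12 arrays in the fit 13 were.

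Fatty acid genes, which answer to the related factor SREBP1, were less uniform. Of 16 measured members 5 were higher and 3 lower, with a median of 0.19. Fasn, the fatty acid synthase, read 0.24, −0.11 and 0.45 with halothane and −1.02, −1.28 and −1.08 with isoflurane (1.32 ± 0.16, 2.49-fold, adjusted p = 0.00203). The elongase Elovl6 (0.90 ± 0.11), the citrate lyase Acly (0.93 ± 0.14), the acyl-CoA synthetase Acsl3 (0.49 ± 0.09) and the acetyl-CoA synthetase Acss2 (0.50 ± 0.09) were the other higher members. The acyltransferase Gpam (−0.55 ± 0.14), the desaturase Fads1 (−0.54 ± 0.10) and the malic enzyme Me1 (−0.45 ± 0.11) were lower. Gpam and Me1 passed in 1 of the 6 leave-one-out fits, 0 to 2 members of the list were lower in any such fit, and 1 member of the list, Fasn, passed with all 12 arrays in the fit. Only 2 of the 8 differences were larger than the control range.

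Genes of the unfolded protein response were lower with halothane than with isoflurane. Of 17 measured members 8 were lower and 0 higher, against 9.98% lower over all named genes, and all 17 differences were below 0 (median −0.50). Hspa5, the main ER chaperone BiP, read −0.31, −0.38 and −0.46 on the halothane arrays and 0.54, 1.02 and 0.74 on the isoflurane arrays. The difference was −1.15 ± 0.14 (2.22-fold, adjusted p = 0.00194). The controls of Hspa5 read 0.12, −0.13 and −0.09, so isoflurane stood above and halothane below all of them. Creld2, an ER-stress-inducible protein with disulfide isomerase activity, read −0.42, −0.68 and −0.45 against 1.39, 1.19 and 1.36 (−1.83 ± 0.11, 3.56-fold), with controls at −0.16, −0.11 and 0.39. The co-chaperone Dnajc3 (−1.41 ± 0.13), the co-chaperone Dnajb9 (−0.94 ± 0.11) and the disulfide isomerase Pdia4 (−0.82 ± 0.10) were lower too. Ddit3, the stress factor CHOP, differed by −1.15 ± 0.17 and was named after its values were seen. The controls of Ddit3 read 0.63, −0.66 and 0.47, with control 2 below the halothane arrays.

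Each of the 8 members passed whichever of the 6 arrays was left out, and 3 passed with all 12 arrays in the fit. The difference was larger than the control range for 6 of the 8. The list median was −0.25 to −0.07 with halothane, 0.34 to 0.53 with isoflurane and 0.01, −0.11 and 0.04 on controls 1, 2 and 3. Control 2 thus lay within the halothane range. For all 8 called members it lay on the halothane side of control 3.

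Promoters of this list hold a known element, shown here for the 3 called members that carry it. The ER stress response element was searched as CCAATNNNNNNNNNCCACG on both strands, between 250 bases before and 50 bases after each gene's start, in the RefSeq promoters of build GRCr8. It was present in 12 of 7639 promoters of tested genes (0.157%) and in 6 of the 17 of the list (35.3%). The element is a textbook feature of such genes, so this share describes the list and not these arrays. Stretches of 3 of them follow, upstream of the gene start, 5′ to 3′, with the match in capitals; in Creld2 it lies on the opposite strand. The stretches are Hspa5 at chr3:38452928-38453015 (plus strand), Creld2 at chr7:121789194-121789302 (plus strand) and Dnajc3 at chr15:102432489-102432597 (plus strand).
Hspa5: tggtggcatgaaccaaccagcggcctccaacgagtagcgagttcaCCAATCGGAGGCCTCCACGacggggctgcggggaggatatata
Creld2: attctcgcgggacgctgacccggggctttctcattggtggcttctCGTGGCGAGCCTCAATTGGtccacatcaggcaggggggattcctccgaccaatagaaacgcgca
Dnajc3: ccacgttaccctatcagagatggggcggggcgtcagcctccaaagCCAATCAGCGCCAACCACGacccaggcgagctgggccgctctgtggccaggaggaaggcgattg

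The element did not separate called from uncalled genes. Besides these 3, it was found in the ER chaperones Hsp90b1 (−0.50 ± 0.20, adjusted p = 0.137), Calr (−0.20 ± 0.15, 0.403) and Canx (−0.11 ± 0.11, 0.585), which did not pass. Among all genes called lower with halothane it was in 4 of 746 promoters (0.536%), those of Hspa5, Creld2, Dnajc3 and Derl3, a component of ER-associated degradation that is not on the list (−0.97 ± 0.089, adjusted p = 0.000812). Among genes called higher it was in 1 of 566 (0.177%), that of Ankmy2 (0.411 ± 0.089, 0.0213).

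ATF4 targets and genes of amino acid supply were lower with halothane. Of 26 measured members 16 were lower and 0 higher (61.5% called, against 17.3% of all named genes). Of the differences 25 lay below 0, and the median was −0.68. Trib3, a pseudokinase induced by ATF4 and CHOP, read −2.64, −2.36 and −2.80 on the halothane arrays and 1.16, 1.87 and 1.37 on the isoflurane arrays. It was 16.8-fold lower (−4.07 ± 0.20, adjusted p = 0.000108). Slc7a11, the cystine transporter, read −1.75, −1.67 and −1.83 against 1.17, 1.37 and 1.25 (−3.01 ± 0.10, 8.08-fold). The groups lay far apart and the spread within each was small. The translation inhibitor Eif4ebp1 (−2.36 ± 0.12), the factor Atf5 (−1.81 ± 0.11) and the arginine transporter Slc7a1 (−1.66 ± 0.15) were lower as well. Atf4 itself was 1.67-fold lower (−0.74 ± 0.10, adjusted p = 0.00395; named after its values were seen).

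Here control 2 stood with halothane. Trib3 read 0.52, −2.37 and 1.08 and Slc7a11 0.28, −1.55 and 0.59 on controls 1, 2 and 3, and the list median was 0.09, −0.51 and 0.19. The list median was −0.52 to −0.45 with halothane and 0.22 to 0.32 with isoflurane. The difference was larger than the control range for 9 of the 16 called members. With 1 array left out 12 to 18 members were lower, and with all 12 arrays in the fit 7 were.

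The amino acid response element, the site ATF4 binds, was searched as TGATGNAA in the same promoters and on both strands. It was found in 5 of 23 promoters of the list (21.7%), against 165 of 7639 (2.16%) of all tested genes. The list was drawn up from known ATF4 targets and amino acid genes, so this share describes the list and not these arrays. Trib3 and Slc7a1 carry it, and their sites are shown because their values are given above. The stretches are Trib3 at chr3:161275534-161275599 (minus strand), with the match on the strand opposite to the gene, and Slc7a1 at chr12:11664413-11664487 (plus strand), both upstream of the gene start with the match in capitals.
Trib3: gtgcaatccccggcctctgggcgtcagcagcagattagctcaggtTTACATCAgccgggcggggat
Slc7a1: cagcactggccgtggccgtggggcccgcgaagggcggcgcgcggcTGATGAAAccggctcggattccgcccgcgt

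The other carriers were Chac1 (−0.55 ± 0.12, adjusted p = 0.0215), which degrades glutathione, the stress protein gene Nupr1 (−0.44 ± 0.10, 0.022) and the asparaginyl-tRNA synthetase Nars1, which did not pass (−0.36 ± 0.17, 0.222). Over all genes the element was in 20 of 746 promoters (2.68%) of genes called lower and in 4 of 566 (0.707%) of genes called higher with halothane. A match of so few letters is a description and not a binding site.

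NRF2 targets were lower with halothane as well, 18 of 32 measured members against 0 higher (median −0.53). The share called was 56.2%, against 17.3% of all named genes. Hmox1, the haem oxygenase, read −2.01, −2.11 and −2.26 with halothane, 1.22, 1.74 and 1.34 with isoflurane and 0.08, −2.21 and 0.82 on controls 1, 2 and 3. The difference was −3.56 ± 0.15 (11.8-fold, adjusted p = 6.79e-05), and its 2 probes gave −4.29 and −2.83. Control 2 stood with halothane and control 3 nearer isoflurane. Osgin1, a growth inhibitor induced by oxidative stress, differed by −3.13 ± 0.09 (8.77-fold) and Nfe2l2, the gene of NRF2 itself, by −3.02 ± 0.14 (8.10-fold). The quinone reductase Nqo1, named after its values were seen, differed by −1.97 ± 0.20, and its controls read 0.28, −0.59 and 0.11. The difference was larger than the control range for 15 of the 18 called members. From 12 to 17 were lower with 1 array left out, and 11 with all 12 arrays in the fit. The antioxidant response element, searched as TGACNNNGC in the same promoters, was in 8 of 28 promoters of the list (28.6%) and in 14.3% of all. It was as common in promoters of ATF4 targets (7 of 23, 30.4%) and of cholesterol synthesis genes (5 of 19, 26.3%), which went the other way, so this share does not set the NRF2 targets apart. Besides the elements given, the sterol regulatory element, searched in 1 exact form, was in 0 of 7639 promoters, and the AP-1 site, as TGANTCA, in 0 of 20 promoters of immediate early genes and 5.29% of all.

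Metal-binding genes moved with these. Of 12 measured members 7 were lower and 1 higher (66.7% called, against 17.3% of all named genes). With all 12 arrays in the fit 4 were lower and 0 higher. The metallothionein Mt2A read −1.76, −1.72 and −1.81 with halothane and 1.25, 1.46 and 1.36 with isoflurane (−3.12 ± 0.09, 8.69-fold, adjusted p = 3.17e-05). Its controls read 0.41, −2.39 and 1.05, so the control range was wider than the difference between the agents. Mt1 differed by −2.47 ± 0.11 (5.53-fold), and the brain-enriched Mt3 by −1.21 ± 0.10. The iron proteins moved in opposite directions: the carrier transferrin, Tf, was 8.95-fold lower (−3.16 ± 0.30), and its receptor Tfrc, the higher member, differed by 1.35 ± 0.15. Tfrc read 0.88, 0.87 and 0.80 with halothane, −0.72, −0.18 and −0.61 with isoflurane and −0.84, 0.88 and −0.65 on the controls.

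Immediate early genes, which neuronal activity and stress switch on, were lower for 11 and higher for 3 of 27 measured members (median −0.35). The share called was 51.9%, against 17.3% of all named genes. With all 12 arrays in the fit 5 were lower and 1 higher. Fos read −0.82, −0.49 and −0.91 on the halothane arrays and 0.63, 0.98 and 0.59 on the isoflurane arrays (−1.48 ± 0.15, 2.79-fold, adjusted p = 0.00119). Its partner Junb differed by −1.54 ± 0.14, the immediate early gene Ier2 by −0.91 ± 0.09 and the prostaglandin synthase Ptgs2 by −1.51 ± 0.14, where 2 probes gave −2.57 and −0.45. The 3 higher members were the nuclear receptors Nr4a2 (1.11 ± 0.16) and Nr4a3 (0.48 ± 0.13) and the kinase Sik1 (0.87 ± 0.13). Nr4a3 passed in 1 of the 6 leave-one-out fits, and Nr4a2 and Sik1 in all 6. The list median of control 2 was −0.31, within the halothane range of −0.43 to −0.29, and the isoflurane arrays lay at −0.18 to 0.06.

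Glycolytic and hypoxia genes were lower for 6 and higher for 0 of 25 (24.0% called, against 17.3% of all named genes), and lower for 2 with all 12 arrays in the fit. The peptide adrenomedullin, Adm, led (−1.95 ± 0.16, 3.85-fold), followed by the HIF target Ankrd37 (−1.24 ± 0.14), the glucose transporter Slc2a1 (−1.07 ± 0.16, with probes at −1.94 and −0.21) and the phosphofructokinase Pfkp (−0.96 ± 0.11). The other 19 members did not pass, and the list median was −0.08. Heat shock genes were split: the co-chaperone Bag3 was 6.20-fold lower (−2.63 ± 0.16) and the small chaperone Cryab lower (−0.98 ± 0.18), whereas the co-chaperone Dnajb1 was higher (0.64 ± 0.10) and 13 of 16 did not pass. Its share of 18.8% called was near that of all named genes, and Cryab did not pass without halothane replicate 2. Targets of p53 and apoptosis genes were lower for 4 of 22, and this share of 18.2% was also near the 17.3% called over all named genes. The 4 were the arrest gene Gadd45a (−1.66 ± 0.15), the death receptors Tnfrsf1a (−1.51 ± 0.09) and Fas (−1.39 ± 0.21) and the cyclin kinase inhibitor Cdkn1a (−0.81 ± 0.10, probes from −1.20 to −0.44).

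Inflammatory genes were lower for 9 and higher for 1 of 30 (33.3% called, against 17.3% of all named genes, median −0.34). With all 12 arrays in the fit 4 were lower and 0 higher. Ccl2, which attracts monocytes, read −1.49, −0.77 and −1.17 with halothane, 1.94, 3.01 and 1.85 with isoflurane and 0.06, −0.98 and 1.15 on the controls. It was 10.6-fold lower (−3.41 ± 0.33, adjusted p = 0.000904). The interleukin receptor Il6r differed by −1.05 ± 0.12, and the chemokine Ccl20 was the member that was higher (1.85 ± 0.20). Xenobiotic metabolism genes were lower for 7 and higher for 0 of 25 (28.0% called), and lower for 3 with all 12 arrays. Among these, Cyp4b1, a cytochrome P450, read −0.25, −0.07 and 0.09 with halothane and 2.01, 3.17 and 1.98 with isoflurane (−2.46 ± 0.31, 5.51-fold, adjusted p = 0.00254). Its controls read −0.21, −0.18 and 0.57, close to the halothane arrays and below all isoflurane arrays. The epoxygenase Cyp2j3 (−2.61 ± 0.13) and the epoxide hydrolases Ephx2 (−2.20 ± 0.12) and Ephx1 (−1.63 ± 0.14) were lower, with control 2 at −1.55, −1.03 and −2.09.

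**Figure D3:**
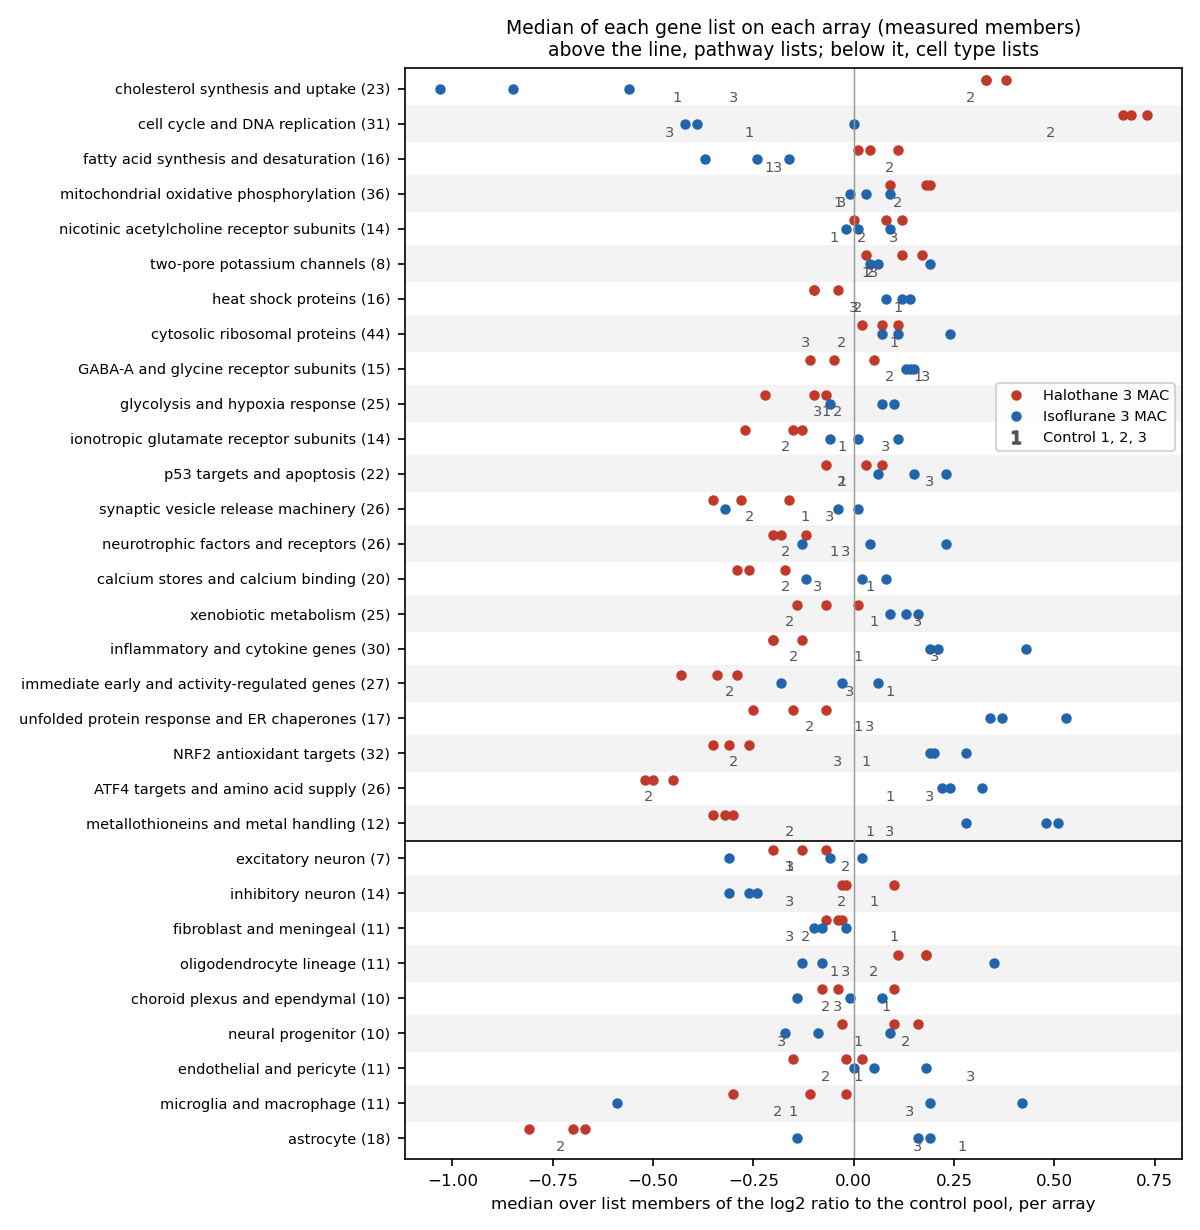
Median log2 ratio to the control pool over the measured members of each gene list (number in brackets), on each halothane 3 MAC (red) and isoflurane 3 MAC (blue) array, with controls 1, 2 and 3 as numerals below. Lists above the line are pathways and those below it are cell type markers, and the red blood cell list, of 3 measured genes, is not drawn. For cholesterol synthesis the halothane arrays lie at 0.33 to 0.38 and the isoflurane arrays at −1.03 to −0.56. Numeral 2 lies near the red points for cholesterol synthesis, cell cycle, unfolded protein response, ATF4, NRF2, immediate early and astrocyte lists.

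Cell cycle and DNA replication genes were higher with halothane for 19 and lower for 0 of 31 measured members (median 0.82, 29 above 0). The share higher was 61.3%, against 7.29% of all named genes. Kif11, a mitotic spindle motor, read 1.41, 1.39 and 1.37 on the halothane arrays, −1.25, 0.02 and −1.23 on the isoflurane arrays and −0.95, 1.26 and −1.30 on controls 1, 2 and 3. It was 4.63-fold higher (2.21 ± 0.32, adjusted p = 0.00469). Isoflurane replicate 2 stood apart from the other isoflurane arrays, with a list median of 0.00 against −0.42 and −0.39. The mitotic genes Cenpf (2.43 ± 0.35), Cdk1 (2.26 ± 0.38), Plk1 (1.57 ± 0.15) and Ube2c (2.08 ± 0.34) were higher too. So were the replication genes Mcm5 (1.92 ± 0.17) and Mcm6 (1.56 ± 0.16, where another probe gave 0.22), and the kinetochore gene Cenpk (1.10 ± 0.12). The replication gene Pclaf, which is not on the list, was higher as well (2.53 ± 0.41). Mki67, the Ki-67 marker of cycling cells, differed by 2.13 ± 0.43 and passed in 3 of the 6 leave-one-out fits. The difference exceeded the control range for 8 of the 19 called members. With 1 array left out 15 to 20 members were higher, and with all 12 in the fit 5 were.

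Among the receptors and channels on which volatile anaesthetics act, the share called was 13.3% for GABA-A and glycine receptors, 7.14% for nicotinic receptors and 35.7% for glutamate receptors, against 17.3% of all named genes, and 0 of 8 two-pore channels passed. Of 15 GABA-A and glycine receptor genes 2 were lower, Gabrg1 (−0.45 ± 0.10, adjusted p = 0.0257) and Gabrb2 (−0.35 ± 0.10, 0.0458), and they passed in 2 and 1 of the 6 leave-one-out fits. Neither passed without halothane replicate 1 or 3 or without isoflurane replicate 1 or 3. Gabra4 stood at −0.52 ± 0.15 (0.0511). Of the two-pore potassium channel genes 1 had an unadjusted p under 0.05: Kcnk12, at −0.47 ± 0.14 (95% interval −0.79 to −0.14). The channels named most often as targets of volatile agents, Kcnk2 (TREK-1), Kcnk3 (TASK-1) and Kcnk9 (TASK-3), stood at 0.03 (−0.23 to 0.30), 0.34 (−0.10 to 0.79) and 0.04 (−0.19 to 0.26). For Kcnk2 and Kcnk9, chosen after their values were seen, the intervals leave room for a difference of up to 0.30 and 0.26. Of 14 nicotinic subunits Chrna4 was higher (0.57 ± 0.11, 0.0143), but not without halothane replicate 3, and 2 subunits were higher without isoflurane replicate 1.

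Ionotropic glutamate receptor genes were lower for 4 and higher for 1 of 14. Grin2a, an NMDA receptor subunit, read −0.04, 0.26 and −0.16 with halothane and 1.34, 1.18 and 0.91 with isoflurane (−1.13 ± 0.16, 2.18-fold, adjusted p = 0.00362). Grik1, a kainate receptor subunit, lay the other way, at 0.09, −0.18 and 0.06 against −1.20, −1.17 and −1.15 (1.16 ± 0.10, 0.000725). Both passed with any array left out. The obligatory NMDA subunit Grin1 (−0.55 ± 0.15), the NMDA subunit Grin2c (−0.43 ± 0.12) and the AMPA subunit Gria4 (−0.38 ± 0.09) were lower at adjusted p of 0.0341 to 0.0493 and passed in at most 1 of those fits, so 1 or 2 members were lower in any such fit. With all 12 arrays in the fit Grin2a and Grik1 had adjusted p of 0.108 and 0.0772.

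Vesicle release genes were lower for 4 and higher for 1 of 26, a share of 19.2% called that was near the 17.3% of all named genes, and lower for 1 without any 1 of the halothane arrays or isoflurane replicate 3, for 2 without isoflurane replicate 1 and for 5 without isoflurane replicate 2. Complexin genes split, with Cplx1 higher (0.94 ± 0.13, adjusted p = 0.00361) and Cplx2 lower (−0.57 ± 0.15, 0.0429). Syt11, a synaptotagmin of vesicle traffic, read 0.86, 0.68 and 0.78 with halothane and 1.49, 1.34 and 1.33 with isoflurane (−0.61 ± 0.10, 0.00678). Its controls read 0.15, −0.28 and 0.15, so all arrays of both agents lay above all controls. The vesicle protein Sv2b (−0.87 ± 0.21) and the synaptotagmin Syt2 (−0.56 ± 0.14) each passed in 1 of the 6 leave-one-out fits. Calcium genes were lower for 5 and higher for 0 of 20: the calcium-binding proteins Calb2 (−0.68 ± 0.12) and Pvalb (−0.83 ± 0.20), the store pump Atp2a2 (−0.53 ± 0.11), the IP3 receptor Itpr2 (−0.42 ± 0.10) and the membrane pump Atp2b3 (−0.41 ± 0.11). Of these Calb2 passed with any array left out, and the list count was 1 to 3 lower in these fits except without isoflurane replicate 2, where it was 6. For Itpr2 the 2 probes disagreed, at −0.99 and 0.14.

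Oxidative phosphorylation genes were higher for 4 and lower for 1 of 36 (13.9% called), with a median of 0.14, and higher for 1 and lower for 0 without halothane replicate 1 or 3 or isoflurane replicate 1 or 3. Uqcrfs1, the Rieske protein of complex III, was 1.90-fold higher (0.93 ± 0.13, adjusted p = 0.00448). The complex III core gene Uqcrc1 (0.43 ± 0.11), the ATP synthase genes Atp5f1a (0.41 ± 0.11) and Atp5mc3 (0.37 ± 0.10) and, below 0, the cytochrome oxidase gene Cox8a (−0.43 ± 0.10) passed in 1 or 2 of the 6 leave-one-out fits. Cytosolic ribosomal protein genes gave 2 lower of 44 (4.55%, against 17.3% called over all named genes), Rpl41 (−0.90 ± 0.14) and Rpl19 (−0.46 ± 0.12), the second of which passed in 1 of the 6 leave-one-out fits. Neurotrophic genes were lower for 6 and higher for 2 of 26 (30.8% called). They were lower for 4 and higher for 0 without halothane replicate 1 or 3, lower for 10 and higher for 3 without isoflurane replicate 2, and lower for 3 and higher for 0 with all 12 arrays in the fit. The growth factor Nrg1 read −0.09, −0.09 and −0.01 with halothane and 1.15, 1.20 and 1.12 with isoflurane (−1.22 ± 0.09, adjusted p = 0.000296), and its controls at 0.14, −0.39 and 0.37 lay below all isoflurane arrays. The sorting receptor Sort1 (−0.95 ± 0.10), the neurosecretory Vgf (−1.23 ± 0.16) and the growth factor receptor Igf1r (−0.80 ± 0.15) were lower, and the receptors Ngfr (0.52 ± 0.10) and Gfra1 (0.41 ± 0.09) higher.

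**Figure D4:**
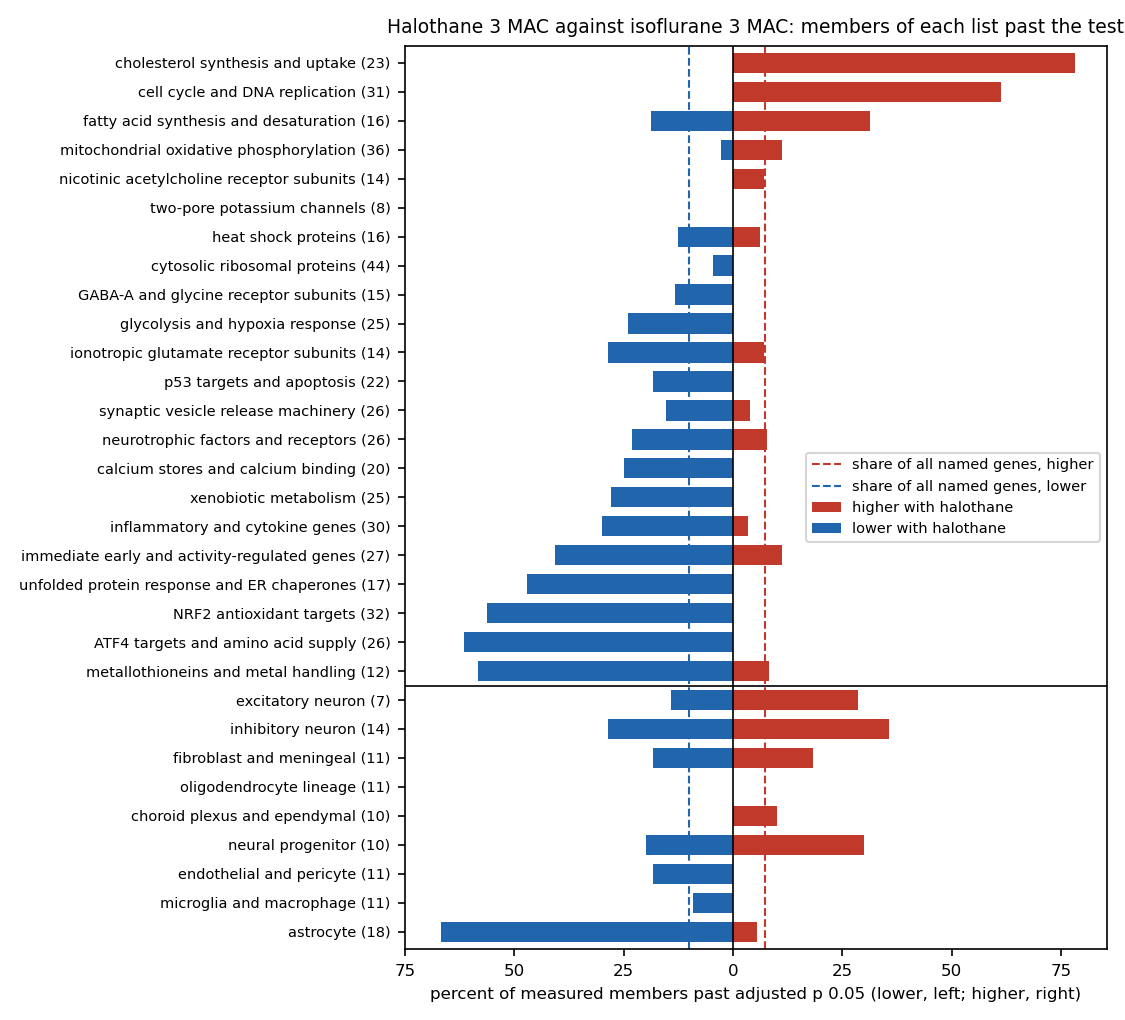
Percent of the measured members of each list (number in brackets) that passed an adjusted p of 0.05, lower with halothane to the left (blue) and higher to the right (red). Dashed lines are the shares over all named genes, 9.98% lower and 7.29% higher. The cholesterol and cell cycle lists have 78.3% and 61.3% of members higher, and the astrocyte list has the largest share lower among cell type lists.

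Markers of astrocytes were lower with halothane for 12 and higher for 1 of 18 measured genes, with a median of −0.84. The share called was 72.2%, against 17.3% of all named genes. With 1 array left out 10 to 14 were lower, and with all 12 arrays in the fit 5 were. In such cultures fewer cells of a type and less RNA per cell cannot be told apart. Gfap, the astrocyte intermediate filament, read −2.21, −2.59 and −2.32 on the halothane arrays, 0.61, 0.51 and 0.57 on the isoflurane arrays and 0.38, −1.91 and 0.35 on controls 1, 2 and 3. It was 7.66-fold lower (−2.94 ± 0.12, adjusted p = 5.36e-05). The calcium-binding S100b (−2.27 ± 0.11), the matrix protein Sparcl1 (−1.84 ± 0.11) and the secreted chaperone Clu (−1.68 ± 0.10) were lower too, with control 2 at −1.76, −1.55 and −1.30. Vim, the intermediate filament vimentin, was lower by the same test (−1.70 ± 0.13, named after its values were seen). The folate enzyme Aldh1l1, a marker in wide use, went the other way, at 0.50, 0.64 and 0.48 with halothane and −0.22, −0.18 and −0.19 with isoflurane (0.74 ± 0.09, 0.00227). The list median was −0.81 to −0.67 with halothane, −0.14 to 0.19 with isoflurane and 0.27, −0.73 and 0.16 on the controls. The difference exceeded the control range for 4 of the 13 called markers. Several genes of the stress lists are also abundant in astrocytes, Mt2A, Mt1 and Slc7a11 among them, and the part of the astrocyte markers in those lists was not tested.

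Neuronal markers were split. Inhibitory neuron markers were higher for 5 and lower for 4 of 14 (64.3% called, against 17.3% of all named genes). Gad1, the GABA-synthesising enzyme, read 0.04, 0.10 and 0.12 with halothane and −1.04, −1.36 and −0.97 with isoflurane (1.21 ± 0.12, 2.32-fold, adjusted p = 0.00103), with controls at −0.48, 0.59 and −0.45. The vesicular GABA transporter Slc32a1 (1.02 ± 0.15), the interneuron factor Dlx5 (1.17 ± 0.13) and the peptides Sst (1.14 ± 0.20) and Tac1 (0.69 ± 0.15) were higher. The peptides Vip (−1.96 ± 0.18) and Cck (−1.37 ± 0.12) and the calcium-binding Calb2 and Pvalb were lower. Of 7 excitatory markers 3 passed (42.9%). The layer factor Fezf2 (0.94 ± 0.21) and the glutamate transporter Slc17a6 (0.44 ± 0.11) were higher. Nrgn, a calmodulin-binding protein of dendrites, was lower (−0.83 ± 0.17). Each passed in 1 to 3 of the 6 leave-one-out fits, and none of the 3 passed without any 1 of the halothane arrays.

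Of the other cell type lists, oligodendrocyte and microglia markers had the smallest shares called besides red blood cells, and fibroblast (4 of 11, 36.4%) and progenitor markers (5 of 10) had larger shares than the 17.3% of all named genes. None of 11 oligodendrocyte lineage markers passed in limma, and 0 had an unadjusted p under 0.05, but 2 were higher without isoflurane replicate 2. Microglia gave 1 of 11, the complement gene C1qc (−0.80 ± 0.22, adjusted p = 0.0493), and the list median of the isoflurane arrays was 0.42, −0.59 and 0.19, so replicate 2 stood below the halothane arrays and the others above. Without that array 5 microglia markers were lower and 1 higher, and with any other array left out none passed. Endothelial and pericyte markers gave Pdgfrb (−1.12 ± 0.12) and Pecam1 (−0.61 ± 0.11, probes from −1.37 to 0.15) of 11, a share of 18.2% that was near the 17.3% of all named genes. Fibroblast markers were split, with the collagen Col1a2 (1.46 ± 0.14) and the proteoglycan Dcn (0.86 ± 0.23) higher and the matrix protein Fn1 (−2.59 ± 0.42) and the surface protein Thy1, which neurons make too (−0.59 ± 0.13), lower, and 2 or 3 members of the list passed with 1 array left out. Among 10 progenitor markers Eomes, the Notch target Hes5 (0.75 ± 0.13) and the lipid-binding Fabp7 (0.67 ± 0.16) were higher, and the Notch target Hes1 (−0.95 ± 0.09) and the intermediate filament Nes (−1.25 ± 0.13) lower.

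A last group is of called genes whose controls lay close together. The rule, chosen after the values were seen, asked for a control range under 25% of the difference between the agents, and 30 of 1593 called genes with values on all controls met it, 10 higher and 20 lower with halothane. Spp1, the secreted phosphoprotein osteopontin, read −0.44, −0.54 and −0.31 with halothane, 1.81, 3.36 and 1.84 with isoflurane and 0.05, 0.00 and 0.32 on the controls (−2.76 ± 0.39, 6.8-fold, adjusted p = 0.00408). Ripk3, the kinase of necroptosis, read −0.03, 0.25 and 0.07 against 2.31, 1.38 and 2.07, with controls at 0.42, 0.43 and 0.81 (−1.82 ± 0.23, 3.53-fold, 0.0026). In both, the isoflurane arrays stood above all other arrays of these groups. Lingo2, a leucine-rich repeat protein of neurons, was the mirror case: −0.11, −0.18 and −0.31 with halothane, −1.58, −1.55 and −1.46 with isoflurane and −0.05, 0.09 and 0.05 on the controls (1.33 ± 0.10, 2.52-fold, 0.000305).

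Hspa5 and Pdia4 of the unfolded protein response were in this group too. The integrin subunit Itga6 read 0.04, −0.19 and −0.08 with halothane, 0.99, 0.88 and 0.88 with isoflurane and −0.06, 0.06 and −0.02 on the controls (−1.0 ± 0.1, adjusted p = 0.00102). Tsku, a secreted leucine-rich repeat protein, differed by −0.86 ± 0.09 and the TGF-beta inhibitor Smad7 by −0.59 ± 0.11. On the higher side the adaptor Sh2d3c (0.91 ± 0.10) had isoflurane arrays at −0.69, −0.81 and −0.87 and controls at 0.03, 0.11 and 0.09. The zinc finger gene Zfp692 (0.66 ± 0.11) was instead high with halothane, at 0.23, 0.34 and 0.53, against −0.20, −0.40 and −0.28 with isoflurane and −0.22 to −0.08 on the controls. These 5 genes passed whichever of the 6 arrays was left out, and Sh2d3c and Tsku, but not Itga6, Smad7 or Zfp692, passed with all 12 arrays in the fit.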

How the data were processed

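RNA of primary rat cortical neurons was hybridised to two-colour Agilent arrays with the sample in Cy5 and pooled control RNA in Cy3, per the labels. The deposited values were read as log10 ratios because they stop at exactly 2, a 100-fold ratio, on either side, and were multiplied by 3.32 to give log2. The software was Partek, per the submitters' processing notes. How background and dyes were corrected is not given in the sources used here. Without spot intensities, which were not used here, dim probes could not be set apart, and precision is limited by the number of arrays.

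Of 21575 spots, 12750 (59.1%) had 1 gene symbol in the platform annotation, 5 several and 8820 none. The 12720 probes that matched the RefSeq gene table kept their symbols (0 renamed), and all named probes gave 9653 genes. Exact zeros, 5.87% of the values on the 6 arrays, were treated as missing, and 471 unnamed spots that sat at the 100-fold limit on 10 or more arrays were left out. A gene took the mean of those of its probes with 12 values or, where there were none, its most complete probe. Unnamed probes stayed features of their own. The 16737 features with at least 2 values in each group were tested with limma 3.58.1 in R 4.3.3 (lmFit and eBayes on the 6 arrays, with 4 residual degrees of freedom and 3.21 from the prior), and two-sided p-values had Benjamini-Hochberg adjustment over all features and a threshold of 0.05. SE comes from this fit. The p-values measure the spread between dishes, which may come from 1 rat. The fit was also run on simulated data in which the dishes varied independently. That run cannot speak to dishes that come from 1 rat.

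The members, the 22 pathway and 10 cell type lists (788 symbols, 597 measured) and the tests were chosen with earlier results of these data known. Named genes are the 14 largest differences in each direction past the threshold whose groups do not overlap, up to 4 members of smallest p per list, and members that a count of 5 or fewer needs; others are said to be chosen after their values were seen. Replicate numbers are shared between the groups. Deviations of same-numbered arrays from their group means correlated at 0.07, 0.04 and −0.04, so the numbers were not taken to pair the arrays. Alternatives were other sets of arrays, the replicate block, 3 normalisations, zeros, filters, probe rules, moderation, array weights, limit spots and the log base. A change of log base scales every value alike and could not change which features passed. Python 3.11.15 with pandas 2.3.3, numpy 2.4.6 and matplotlib 3.10.9 made the tables and plots.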

Additional observations from a re-analysis of the deposited data

How the results depend on the processing

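The 2782 features that differed between halothane and isoflurane (1198 higher, 1584 lower) became 580 (171 higher, 409 lower) when the spread was taken from all 12 arrays in 4 groups, and all 580 were among the 2782. Without halothane 1 MAC replicate 1 in that fit the count was 2072. With 1 of the 6 arrays left out it ranged from 1452 (without halothane replicate 3) to 2847 (without isoflurane replicate 2), with 528 to 1161 higher and 924 to 1686 lower, and 1308 features (47.0%) passed in all 6 such fits. With the replicate number as a block 2116 features passed (852 higher, 1264 lower), 1963 of them among the 2782, and 136 of the 156 called genes named here. The other settings gave 2608 (zeros kept) to 3836 (array weights). Every feature that passed under a setting and in the comparison as reported kept its direction. Quantile normalisation gave 47.2% of calls higher, against 43.1%, and the fit of all 12 arrays 29.5%. Of the named genes that passed, 79 of 156 also passed with all 12 arrays in the fit. With 1 probe per gene in place of the mean, Itpr2 stood at 0.14 (adjusted p = 0.622) and Pecam1 at 0.15 (0.522), both on the other side of 0, since their probes disagree. Genes that did not pass and stood near 0 changed sign: Insig2 reached 0.08 with quantile normalisation, 0.03 with arrays scaled to one spread and −0.07 to 0.03 in leave-one-out fits, and Kcnk9 reached −0.01 with array weights and −0.01 to 0.08 in leave-one-out fits. In such fits Srebf2 lay at −0.02 to 0.15, Scap at −0.04 to 0.03 and Kcnk2 at −0.04 to 0.12. Signal over background was not analysed here, so what dim probes limit is not known.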

Other observations

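The controls differed from each other in some genes by as much as the agents did, and in a pattern other than control 2 against the rest. Pop5, a subunit of ribonuclease P and MRP, read 0.50, 0.64 and 0.47 with halothane, −1.53, −0.92 and −1.59 with isoflurane and 0.95, 0.36 and −1.39 on controls 1, 2 and 3. Pinlyp, an inhibitor of phospholipase A2, read −0.10, 0.29 and −0.25 with halothane, −1.94, −1.57 and −2.13 with isoflurane and 1.04, −0.11 and −2.19 on the controls. For both genes control 2 lay among or beside the halothane arrays, control 3 lay among or beside the isoflurane arrays, and control 1 lay above all 6. They were chosen after their values were seen and were not tested further.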
